A study of Homo sapiens with 6 samples.

Results

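The multi-subunit SWI/SNF complexes use ATP to move nucleosomes and come in 3 forms that share a core and differ in a few defining subunits. Here 10 genes for such subunits were followed in ATAC-seq peak lists. ARID1A, ARID1B, DPF2 and DPF3 define BAF, ARID2, PBRM1, BRD7 and PHF10 define PBAF, and BRD9 and BICRA define ncBAF. They were taken as a fixed list and placed at their RefSeq coordinates (GRCh38), and all 10 matched, out of 19974 protein-coding genes on chromosomes 1 to 22 and X. Every peak in a gene or within 10 kb of it was kept and was called a gene-end peak when it lay within 1000 bp of either end of the gene.

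ATAC-seq marks open DNA by the insertion of sequencing adapters by the Tn5 transposase, and a peak at a gene start usually marks an accessible promoter. ARID1A and ARID1B are alternative AT-rich-interaction subunits of BAF, of which one complex holds only one. ARID1A is among the most often mutated chromatin genes in liver cancer, and loss of one subunit is known to shift the use of the others. Whether the genes of the other subunits were open was therefore followed in cells with an altered ARID1A.

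All libraries came from Huh7, a human hepatocellular carcinoma line, with the endogenous ARID1A knocked out and a lentiviral Flag-tagged ARID1A put back. In the V2084D shSTUB1 group the added copy carried the missense change V2084D and the cells also carried a knockdown of STUB1, a chaperone-linked ubiquitin ligase. The V2084D group carried the same missense copy without that knockdown, and the WT group carried the wild-type copy. Each group had 2 libraries. The labels name no control hairpin, do not say whether the knockout line was 1 clone, and do not say that replicates were separate cultures. The added copy came from a lentiviral construct, and peaks inside the ARID1A gene were not assigned to the endogenous gene or to the construct.

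The libraries differed in length and depth before any gene was considered. The lists held 21728 and 15326 summits in V2084D shSTUB1, 9231 and 30768 in V2084D, and 10441 and 7401 in WT. Relative depth, worked out from each summit's fold and p and set to 1 for the lowest library, was 1.49 and 1.23, 1.17 and 1.70, and 1.01 and 1 in the same libraries. V2084D replicate 2 stood apart as the deepest library with the longest list. Median reads per summit were between 8 and 12, so where no peak is listed the DNA may still have been open below the limit of detection. As a check of the label, 1 of 10 hepatocyte marker genes (APOA1, in 3 libraries) had a gene-end peak in any library, and ALB, AFP, APOB, TTR, SERPINA1 and HNF4A were among those with none. Of the markers of other cell types, 1 of 4 leukocyte (SPI1), 1 of 3 endothelial (KDR) and 1 of 4 fibroblast and stellate genes (COL1A1, in all 6 libraries) had one. At gene ends the lists thus held 1 of the 10 markers of the labelled cell type, and in 3 of the 6 libraries none.

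Promoters of 6 members are shown because they span the range of outcomes: DPF2 and BICRA had a peak at the start in 5 of the 6 libraries, DPF3 in 4, PBRM1 in 2 and ARID1A in 1, and BRD7 had no peak in the gene or its flanks in any. Each runs 5′ to 3′ on the gene's strand, from 250 bases before to 50 bases after the annotated start, from RefSeq (GRCh38.p14). Capitals mark matches, on either strand, to the short motif cores described after them.
DPF2, chr11:65333602-65333901, plus strand: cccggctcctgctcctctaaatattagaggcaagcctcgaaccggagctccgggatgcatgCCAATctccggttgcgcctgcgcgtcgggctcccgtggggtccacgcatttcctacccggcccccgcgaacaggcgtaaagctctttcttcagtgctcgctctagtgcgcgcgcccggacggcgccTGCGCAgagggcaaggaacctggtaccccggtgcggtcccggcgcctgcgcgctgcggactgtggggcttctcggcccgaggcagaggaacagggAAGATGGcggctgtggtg
BICRA, chr19:47607946-47608245, plus strand: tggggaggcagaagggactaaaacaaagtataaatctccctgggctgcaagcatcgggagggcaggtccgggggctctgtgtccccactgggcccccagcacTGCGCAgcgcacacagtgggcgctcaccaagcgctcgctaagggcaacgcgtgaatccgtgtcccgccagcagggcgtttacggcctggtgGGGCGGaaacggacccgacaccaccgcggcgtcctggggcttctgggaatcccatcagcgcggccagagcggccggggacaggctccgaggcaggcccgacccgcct
DPF3, chr14:72894052-72894351, minus strand: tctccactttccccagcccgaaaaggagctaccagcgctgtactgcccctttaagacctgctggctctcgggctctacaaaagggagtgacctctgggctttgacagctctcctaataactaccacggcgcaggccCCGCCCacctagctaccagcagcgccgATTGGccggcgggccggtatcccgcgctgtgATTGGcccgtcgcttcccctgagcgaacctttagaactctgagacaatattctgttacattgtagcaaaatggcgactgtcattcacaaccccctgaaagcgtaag
PBRM1, chr3:52685864-52686163, minus strand: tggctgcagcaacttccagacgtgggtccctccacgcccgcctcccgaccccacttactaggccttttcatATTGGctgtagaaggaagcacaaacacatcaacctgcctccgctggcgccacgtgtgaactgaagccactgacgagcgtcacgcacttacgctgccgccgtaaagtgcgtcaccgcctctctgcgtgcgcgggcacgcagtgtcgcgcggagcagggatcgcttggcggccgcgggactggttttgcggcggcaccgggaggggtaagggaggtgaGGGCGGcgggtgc
ARID1A, chr1:26695765-26696064, plus strand: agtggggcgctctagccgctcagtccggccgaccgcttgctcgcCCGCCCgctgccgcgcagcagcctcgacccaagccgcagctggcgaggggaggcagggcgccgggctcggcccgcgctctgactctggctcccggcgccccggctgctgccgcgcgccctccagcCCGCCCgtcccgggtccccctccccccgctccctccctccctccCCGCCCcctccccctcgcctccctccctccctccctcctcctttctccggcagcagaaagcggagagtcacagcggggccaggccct
BRD7, chr16:50368939-50369238, minus strand: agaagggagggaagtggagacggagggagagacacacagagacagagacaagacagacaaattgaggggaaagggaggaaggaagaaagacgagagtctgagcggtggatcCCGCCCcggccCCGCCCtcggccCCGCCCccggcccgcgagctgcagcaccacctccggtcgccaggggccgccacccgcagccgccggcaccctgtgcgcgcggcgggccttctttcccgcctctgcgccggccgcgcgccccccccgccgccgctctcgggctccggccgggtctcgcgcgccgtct

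For 9 members a window was listed at the outermost start, the one at the gene boundary. There, but not over all listed starts, the windows with and without a peak over them differed in GC content. The 4 windows overlapped by a peak had 57.0% (DPF3), 65.3% (PBRM1), 67.7% (DPF2) and 68% (BICRA) GC. Of the 5 with none, BRD7 (73.3%), BRD9 (77.0%), ARID1A (78.0%) and PHF10 (85.3%) lay above these and ARID1B (37.7%) below, where the median of all windows was 62.3%. As a description of 9 windows this carries no test, and the part of GC content in the calls was not tested. Some members had a second listed start, and no peak overlapped its window. In DPF3 (63.3%) and BICRA (64.7%) the GC content of that window lay within the range of the windows with a peak. In PBRM1, BRD9 and ARID1B it lay above that range. The split thus did not hold once second starts were included. CpG counts of the 9 outermost windows lay in nearly the same arrangement, at 18 to 33 in the 4 with a peak. They were 33 to 47 in BRD7, BRD9, ARID1A and PHF10, and 5 in ARID1B. At second starts, the DPF3 count of 21 lay within the range of the windows with a peak. The counts in BICRA (35), PBRM1, BRD9 and ARID1B lay above it. The tie of 33 CpG dinucleotides was between the DPF2 window, overlapped by peaks of 5 libraries, and the ARID1A window, overlapped by none. The BRD7 window held 37, the PBRM1 window 31, the BICRA window 26 and the DPF3 window 18, against a median of 21 over 22156 windows of protein-coding genes. Among the outermost starts PHF10, a histone-binding PBAF subunit gene, had the most, 47 with a GC content of 85.3%, and no peak over it. The motif search covered 7 short cores on both strands, with the share of those windows that hold each. The SP/KLF core was spelled GGGCGG and occurs in 56.3% of them. The NF-Y core was spelled CCAAT and occurs in 34.6%. For ETS factors CCGGAAG was searched, which occurs in 12.8%, and for NRF1 the search used TGCGCA, which occurs in 9.88%. The YY1 core was AAGATGG, found in 6.04%. The CREB/ATF core was TGACGT, found in 8.92%, and the AP-1 core was TGACTCA, found in 4.02%. No matches to different cores overlapped in the members' windows. DPF2 held the NF-Y, NRF1 and YY1 cores and no SP/KLF core. BICRA held the SP/KLF and NRF1 cores, DPF3 and PBRM1 held those of SP/KLF and NF-Y, and ARID1A and BRD7 held the SP/KLF core only, at 3 places each. A match describes the letters of the window and shows no binding.

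In at least 1 library 5 of the 10 members had a gene-end peak, and the other 5 had none. DPF2 alone had one in all 6 libraries, BICRA in 5, DPF3 in 4, PBRM1 in 2 and ARID1A in 1. Among the 19974 protein-coding genes, 15.8% were called at an end in every library and 41.8% in no library. By library, 4 and 4 of the 10 members had a gene-end peak in V2084D shSTUB1, 3 and 3 in V2084D, and 2 and 2 in WT. The share of all protein-coding genes was 48.1% and 40.6% in V2084D shSTUB1, 31.1% and 54.7% in V2084D, and 32.3% and 24.2% in WT. The members' count was equal within each group, and the share of all genes was not, with V2084D replicate 2 far above V2084D replicate 1. A count out of 10 is too coarse for this to set the members apart. The equal counts came in part from different genes. In both libraries of a group 3 members had a gene-end peak in V2084D shSTUB1, 2 in V2084D and 1 in WT. This compares with 37.4%, 30.5% and 19.9% of all protein-coding genes. The same 6-library pattern was shared by 3163 protein-coding genes for DPF2, 1175 for BICRA, 225 for DPF3, 84 for ARID1A and 22 for PBRM1.

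**Figure D1:**
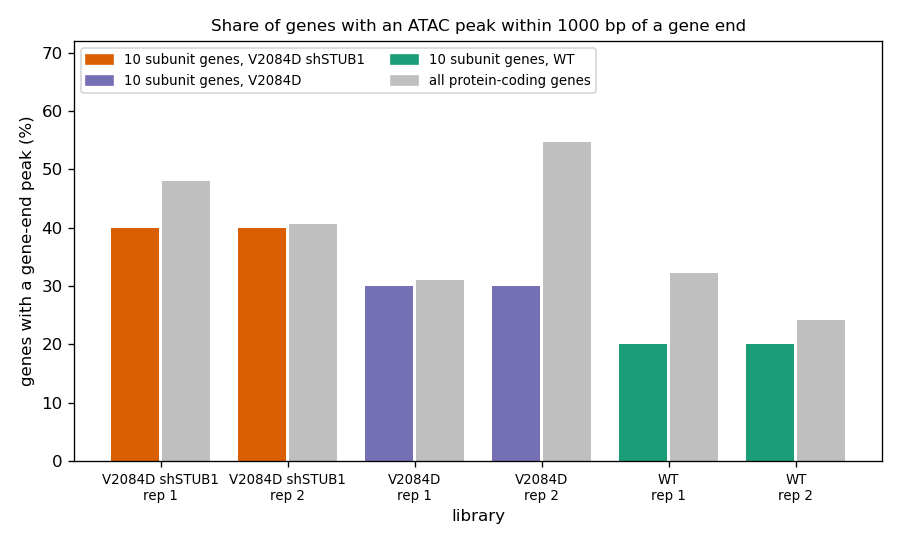
Percent of genes with an ATAC peak within 1000 bp of a gene end (vertical axis) in each library (horizontal axis), for the 10 subunit genes (coloured bars) and for all 19974 protein-coding genes (grey bars). The subunit genes stand at 2 to 4 of 10 in every library, and all genes range between 24.2% and 54.7%. A count out of 10 is too coarse to tell these ranges apart.

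The members' gene-end peaks were modest within their lists. Each library's peaks were ranked by their −log10 q, the significance given by the authors' caller, and the strongest gene-end peak of each member was placed on that scale from 0 to 100. The 18 member peaks had a median percentile of 47.4, a lowest of 10.4 and a highest of 69.6, against a median of 64.4 for the strongest gene-end peaks of all protein-coding genes. The member median was below that of all genes in each library. It was 35.5 and 40.9 in V2084D shSTUB1, 52.2 and 57.3 in V2084D, and 33.8 and 43.9 in WT. For all genes it was 67.2 and 62.2, 57.2 and 72.8, and 59.6 and 57.4 in the same libraries. Member summits held between 6 and 16 reads. When every list was cut to the length of the shortest no member kept a gene-end peak in both libraries of any group. The share of all genes that did was not worked out, so this loss is not shown to be particular to the members.

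**Figure D2:**
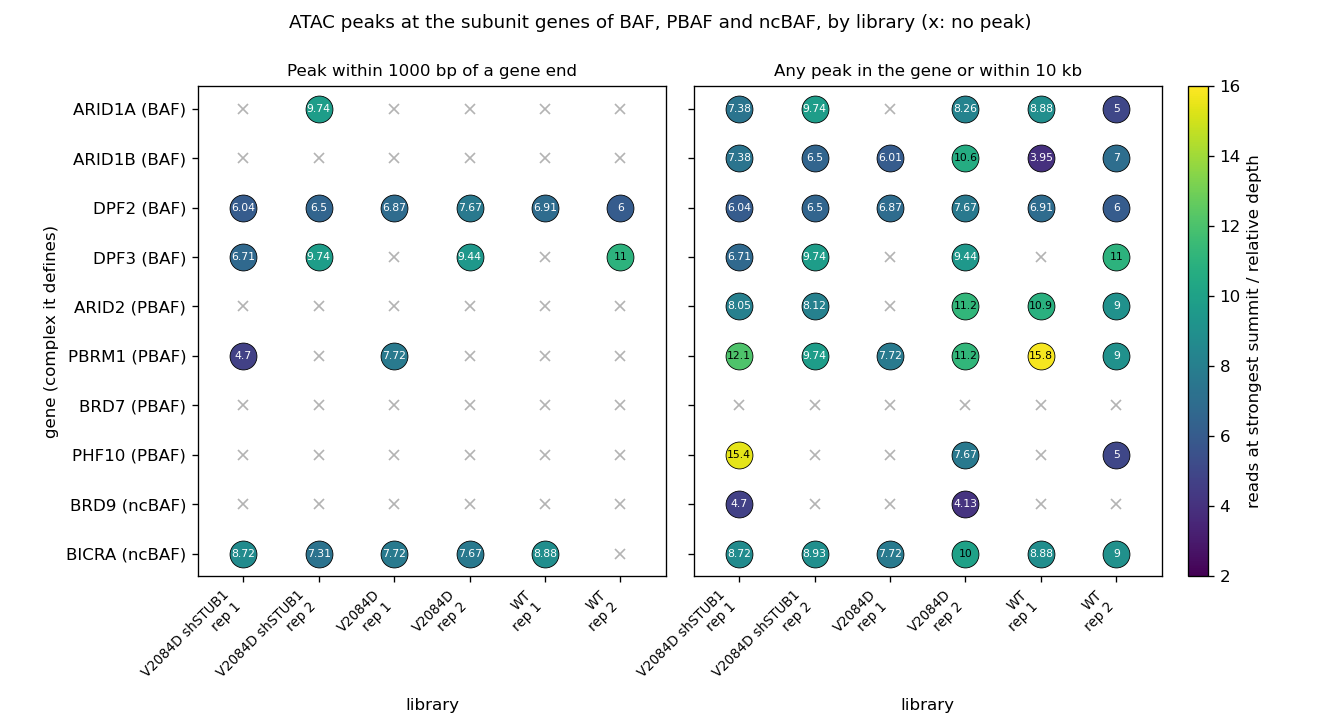
Reads at the strongest summit divided by relative depth (colour and printed value) for each subunit gene (rows, with the complex it defines) and library (columns), at gene ends on the left and anywhere in the gene or within 10 kb on the right, with a cross where no peak was listed. DPF2 is filled across all 6 libraries at gene ends, and BRD7 is empty in both panels.

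Among the BAF members, ARID1A (chromosome 1, 26696015 to 26782104) had a peak at its own start in 1 library. The 1 gene-end peak was in V2084D shSTUB1 replicate 2 (26695514 to 26695730), with a summit 343 bp before the start, 12 reads and a fold of 5.80 over local background. That stretch is also the start of LOC124900417, a divergent predicted protein-coding gene. Within 10 kb there were 4 other regions. The most recurrent (26787820 to 26788342) had 11 reads in V2084D shSTUB1 replicate 1, 13 in V2084D replicate 2 and 9 in WT replicate 1. It lay 5716 bp beyond the far end of ARID1A, at the start of PIGV, a gene for a GPI-anchor mannosyltransferase. Each of the other 3 was in 1 library, 1 of them in V2084D replicate 2 and 1 in each WT library. V2084D replicate 1 had no peak in ARID1A or within 10 kb.

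ARID1B (chromosome 6, 156776026 to 157210779), the paralogue that can take the place of ARID1A in BAF, had no gene-end peak in any library, yet held 1 of the 3 member regions present in all 6. This region (157021294 to 157021927) lay 245268 bp downstream of the start, away from every annotated gene end. Its strongest summit had 11 and 8 reads in V2084D shSTUB1, 7 and 18 in V2084D, and 4 and 7 in WT. The folds were 5.50 and 4.69, 4.49 and 7.36, and 3.57 and 5.13 in the same libraries. V2084D replicate 2 was highest and WT replicate 1 lowest, and the groups overlapped. The outermost annotated start of ARID1B lies in DNA with 5 CpG in 300 bases and a second annotated start in DNA with 39, and no peak overlapped either window. Whether the region within the gene is exonic or intronic was not determined.

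DPF2 (chromosome 11, 65333852 to 65354262) encodes a PHD-finger subunit that reads modified histone H3. Its start was called in every library but WT replicate 2, with summits between 167 bp before and 27 bp after the start. The summits at the start had 9 and 7 reads in V2084D shSTUB1, 8 and 13 in V2084D, and 7 in WT replicate 1. A region at the far end (65354226 to 65354739) had 8 reads in V2084D shSTUB1 replicate 2, 9 in V2084D replicate 2 and 6 in WT replicate 2. That far-end peak alone gave WT replicate 2 its call, and TIGD3 also has an end there.

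DPF3 (chromosome 14, 72609034 to 72894101), a paralogue of DPF2 best known from heart and skeletal muscle, had peaks at its start in 4 libraries. The region over the start (72894034 to 72894405) had 10 and 12 reads in V2084D shSTUB1, 16 in V2084D replicate 2 and 11 in WT replicate 2. V2084D replicate 1 and WT replicate 1 had no peak in DPF3 or within 10 kb, so both groups were split. Neighbouring regions were called 600 bp inside the start in V2084D shSTUB1 replicate 1 (8 reads) and 560 bp before it in V2084D shSTUB1 replicate 2 (12 reads). Per depth the values were 6.71 and 9.74 in V2084D shSTUB1, 9.44 in V2084D replicate 2 and 11 in WT replicate 2. The shallow WT replicate 2 was thus the highest of the 4.

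Of the PBAF members 1 of 4 had any gene-end peak, beside 3 of 4 for BAF and 1 of 2 for ncBAF. Of all protein-coding genes 41.8% had none in any library, and sets this small cannot show a difference between the complexes. PBRM1 (chromosome 3, 52545367 to 52685913), which encodes the subunit with many bromodomains, had a peak at its start (52685928 to 52686163) with 7 reads in V2084D shSTUB1 replicate 1 and 9 in V2084D replicate 1. The other 4 libraries, the deepest included, had none. The start is shared with GNL3, a nucleolar GTPase gene that runs the other way. A region 8599 bp beyond the far end (52536349 to 52536768) was present in all 6 libraries, at the start of UQCC5, a gene for assembly of respiratory complex III. Its reads were 18 and 12 in V2084D shSTUB1, 8 and 19 in V2084D, and 16 and 9 in WT. A further region within the gene (52636632 to 52637199) had 7 reads in V2084D shSTUB1 replicate 1 and 8 in V2084D replicate 2.

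ARID2 (chromosome 12, 45729706 to 45908037), the AT-rich-interaction subunit of PBAF, had 1 region, 1625 bp outside its lower-coordinate end (45727368 to 45728081). It was called in every library but V2084D replicate 1 and lies at the start of the long non-coding RNA gene LINC00938. The reads were 12 and 10 in V2084D shSTUB1, 19 in V2084D replicate 2, and 11 and 9 in WT. Per depth the 2 V2084D shSTUB1 libraries (8.05 and 8.12) lay below V2084D replicate 2 (11.2) and below both WT libraries (10.9 and 9.0). Of the 4045 regions called in all V2084D shSTUB1 and WT libraries, 18.6% had both V2084D shSTUB1 libraries below both WT libraries.

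PHF10 (chromosome 6, 169703902 to 169724500), a subunit with tandem PHD fingers, had no gene-end peak. A region 1258 bp beyond its far end (169701739 to 169702644), at the starts of WDR27 and C6orf120, had 23 reads in V2084D shSTUB1 replicate 1, 13 in V2084D replicate 2 and 5 in WT replicate 2. The peak of V2084D shSTUB1 replicate 1 was the strongest of any member, with a fold of 10.1 and a percentile of 98.5 in its list. No peak was called there in V2084D shSTUB1 replicate 2, V2084D replicate 1 or WT replicate 1, so the strength did not repeat within the group. BRD7 (chromosome 16, 50315957 to 50368988), a bromodomain subunit of PBAF also studied as a partner of p53, was the 1 member with no peak in the gene or within 10 kb in any library, as were 24.0% of protein-coding genes. The summit nearest to its start lay between 109068 bp (V2084D replicate 1) and 372868 bp (WT replicate 1) away.

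For ncBAF, the form without an ARID subunit, both patterns occurred. BICRA (chromosome 19, 47608196 to 47703277), which encodes a scaffold subunit also known as GLTSCR1, was open at its start (47608095 to 47608808) in every library but WT replicate 2. The strongest summit had 13 and 9 reads in V2084D shSTUB1, 9 and 13 in V2084D, and 9 in WT replicate 1, where BICRA-AS2 also starts. A region 7406 bp before the start (47600237 to 47600790), away from any annotated gene end, was present in all 6 libraries. Its reads were 12 and 11 in V2084D shSTUB1, 7 and 17 in V2084D, and 6 and 9 in WT. BRD9 (chromosome 5, 863741 to 892801), the bromodomain subunit targeted by degrader compounds, had 1 region (891171 to 891631) with 7 reads in V2084D shSTUB1 replicate 1 and 7 in V2084D replicate 2, the 2 deepest libraries. It lay 1170 bp inside the start, the nearest of all regions outside the 1000 bp limit, where the farthest region inside it was 600 bp from the DPF3 start.

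**Figure D3:**
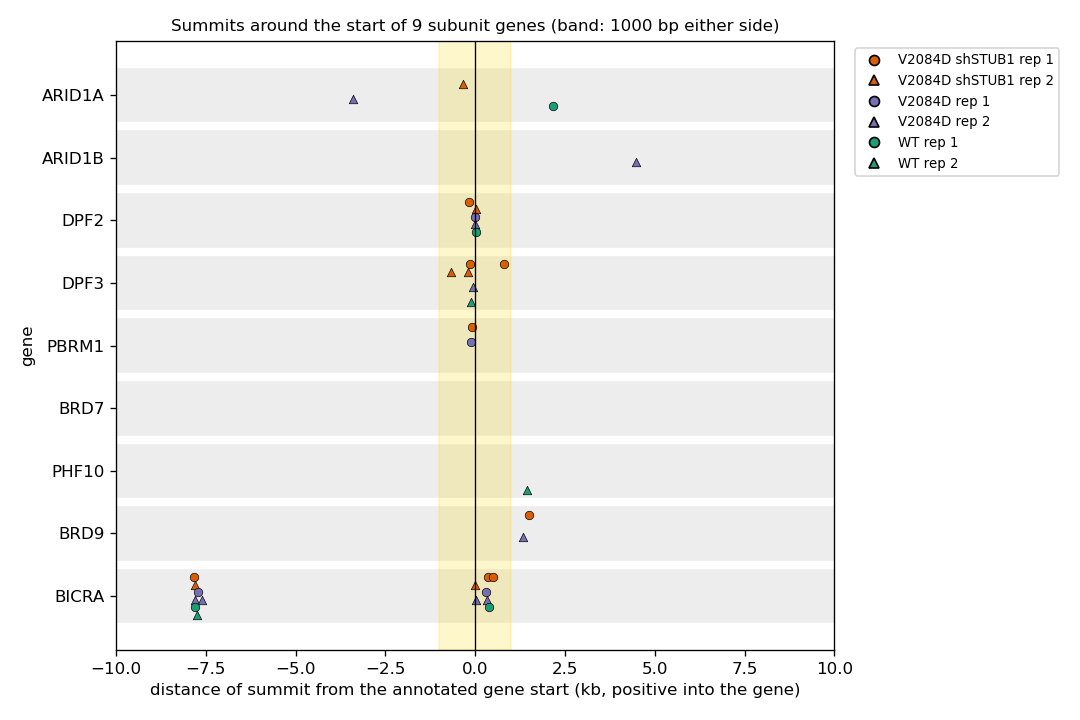
Summits within 10 kb of the annotated start of 9 subunit genes (rows), by distance from the start in kb (horizontal axis, positive into the gene), with colour for the group, circles for replicate 1, triangles for replicate 2 and a band for 1000 bp on either side. DPF2 summits cluster at the start, BICRA has a cluster at the start and another well before it, and BRD7 has no summit. ARID2 is not drawn.

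Away from gene ends the members held 19 merged regions, made by joining peaks of all libraries that overlap by 1 bp. Of these 11 were in 1 library and 3 in all 6, beside 44.3% and 11.3% of all 28879 regions, those at gene ends included. In 4 or more libraries there were 4. The 4 are the regions within ARID1B, beyond PBRM1, before BICRA and beside ARID2 described above. The end of another protein-coding gene lay within 1000 bp of 5 of the 19. Any peak in the gene or within 10 kb was found for 9 and 7 of the 10 members in V2084D shSTUB1, 4 and 9 in V2084D, and 6 and 8 in WT. The share of all protein-coding genes was 65.3% and 56.1%, 43.4% and 72.2%, and 46.0% and 35.6% in the same libraries.

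The first comparison, of V2084D with WT, asks where accessibility differed when the missense form replaced the wild-type copy. A gene end was counted for one group only when its libraries all had a peak there and the other group had none. By this rule 0 of the 10 members were V2084D only and 0 were WT only, beside 5.07% and 0.0501% of all protein-coding genes. Each member with a gene-end peak in these groups was either shared between them (DPF2, BICRA, DPF3) or missing from 1 library of the group that had it (PBRM1). Of the 19 member regions away from their own gene's ends 0 were V2084D only and 0 WT only. Of the 16794 regions at no protein-coding gene's end, the set to which 14 of the 19 belong, 4.06% and 0.22% were. Over all 28879 regions the shares were 5.56% and 0.187%. With 2 libraries a side, the smallest two-sided p that exact permutation allows is 0.333, and no test was attached. With 1 library left out, the members' counts and the share of all genes did not always move together. Without V2084D replicate 1, 0 members would count as V2084D only, beside 18.9% of protein-coding genes. Without WT replicate 1, 1 member (BICRA) would count as V2084D only, beside 12% of protein-coding genes. Without V2084D replicate 2, 1 member (PBRM1) would, beside 5.52%. Without V2084D replicate 1, which leaves the longest list alone, 8 of the 19 regions would count as V2084D only, beside 49.6% of the regions at no gene end. The ARID2 region would count as WT only without V2084D replicate 2, beside 2.63%. Without WT replicate 1, 2 regions (within ARID1A and PHF10) would count as WT only, beside 2.77%, and without WT replicate 2, 1 region within ARID1A would, beside 4.23%.

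The second comparison, of V2084D shSTUB1 with V2084D, asks what the STUB1 knockdown changed in cells with the missense form. Again none of the 10 members met the rule in either direction at gene ends, where 0.365% of all protein-coding genes were V2084D shSTUB1 only and 0.656% V2084D only. None of the 19 regions did so, against 1.6% and 1.18% of the regions at no gene end and 1.29% and 1.19% of all regions. Without V2084D shSTUB1 replicate 1, 1 member (ARID1A) would count as V2084D shSTUB1 only, beside 0.856% of protein-coding genes. Without V2084D replicate 2, 1 member (DPF3) would, beside 10.8%. Of the 19 regions, 6 would count as V2084D only without V2084D replicate 1, beside 34.2% of the regions at no gene end. Another 2, within ARID1B and beyond BICRA, would count as V2084D shSTUB1 only without V2084D shSTUB1 replicate 2, beside 16.3%, and the ARID2 region without V2084D replicate 2, beside 10.3%.

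The third comparison, of V2084D shSTUB1 with WT, shares its libraries with the other comparisons. No member qualified at gene ends, against 7.07% of protein-coding genes that were V2084D shSTUB1 only and 0.135% that were WT only. None of the 19 regions did, against 6.99% and 0.28% of the regions at no gene end and 8.46% and 0.246% of all regions. With lists of equal length the shares of genes were 1.75% and 1.75%. Leaving out any 1 of the 4 libraries gave 1 of 10 members as V2084D shSTUB1 only, a share near that of all genes. It was ARID1A without V2084D shSTUB1 replicate 1 (9.25% of genes), PBRM1 without V2084D shSTUB1 replicate 2 (13.8%), BICRA without WT replicate 1 (15.8%) and DPF3 without WT replicate 2 (9.98%). Of the 19 regions, 4 would count as V2084D shSTUB1 only without V2084D shSTUB1 replicate 2, beside 29.9% of the regions at no gene end. Without WT replicate 1, 2 regions would count as WT only, beside 3.11%, and 1 without WT replicate 2, beside 4.7%.

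Reads at the strongest summit, divided by relative depth, allowed a comparison of size where all 6 libraries had a peak. DPF2 was the only member for which this held at gene ends, and the regions within ARID1B, beyond PBRM1 and before BICRA were added. The DPF2 gene ends averaged 6.27 ± 0.322 in V2084D shSTUB1, 7.27 ± 0.568 in V2084D and 6.45 ± 0.641 in WT (SD, n = 2 each). The log2 ratio was 0.17 for V2084D over WT and -0.04 for V2084D shSTUB1 over WT, with overlapping libraries. Of the 3163 gene ends called in every library, both V2084D libraries lay above both WT libraries at 13.1% and below at 15.2%. For V2084D shSTUB1 against WT these shares were 21.2% and 17.6%. Both V2084D shSTUB1 libraries (6.04 and 6.5) lay below both V2084D libraries (6.87 and 7.67), with a log2 ratio of -0.21, as did 9.67% of those gene ends, while 12.1% lay above. With all summits of a library summed these libraries overlapped. These DPF2 values take whichever end was stronger, and it was the far end in V2084D shSTUB1 replicate 2 and WT replicate 2.

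The ARID1B region averaged 6.94 ± 0.627 in V2084D shSTUB1, 8.31 ± 3.26 in V2084D and 5.47 ± 2.16 in WT (SD, n = 2 each). Its log2 ratio of 0.60 for V2084D over WT exceeded that of 94.3% of the 3269 regions called in all libraries, but was smaller than its own spread between replicates (SD 0.824) and the libraries overlapped. With values scaled to the median of shared gene ends both V2084D libraries lay above both WT libraries at a log2 ratio of 0.55, as did 18.3% of the regions on that scale. On that scale both V2084D shSTUB1 libraries also lay below both V2084D libraries, as at 16.4% of the regions, where by depth they overlapped. The PBRM1 flank region averaged 10.9 ± 1.65 in V2084D shSTUB1, 9.04 ± 3.07 in V2084D and 12.4 ± 4.80 in WT. Its log2 ratios were -0.46 for V2084D over WT, 0.27 for V2084D shSTUB1 over V2084D and -0.18 for V2084D shSTUB1 over WT. All were smaller than the spread and the libraries overlapped, although with the median scaling both V2084D shSTUB1 libraries lay above both V2084D libraries, as at 16.2% of the regions. The region before BICRA averaged 8.49 ± 0.620 in V2084D shSTUB1, 8.02 ± 2.84 in V2084D and 7.46 ± 2.18 in WT, and its log2 ratios lay between 0.08 and 0.19 with overlapping libraries. The sign of the PBRM1 and BICRA ratios turned when single libraries were left out. So did the sign at the ARID1B region for V2084D shSTUB1 over V2084D and over WT. At the DPF2 gene ends it turned for V2084D shSTUB1 over WT. By depth, both V2084D libraries lay above both WT libraries at 13.4% of the 3269 regions and below them at 15.9%. For V2084D shSTUB1 these shares were 12.6% and 9.48% against V2084D, and 21.1% and 17.8% against WT.

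**Figure D4:**
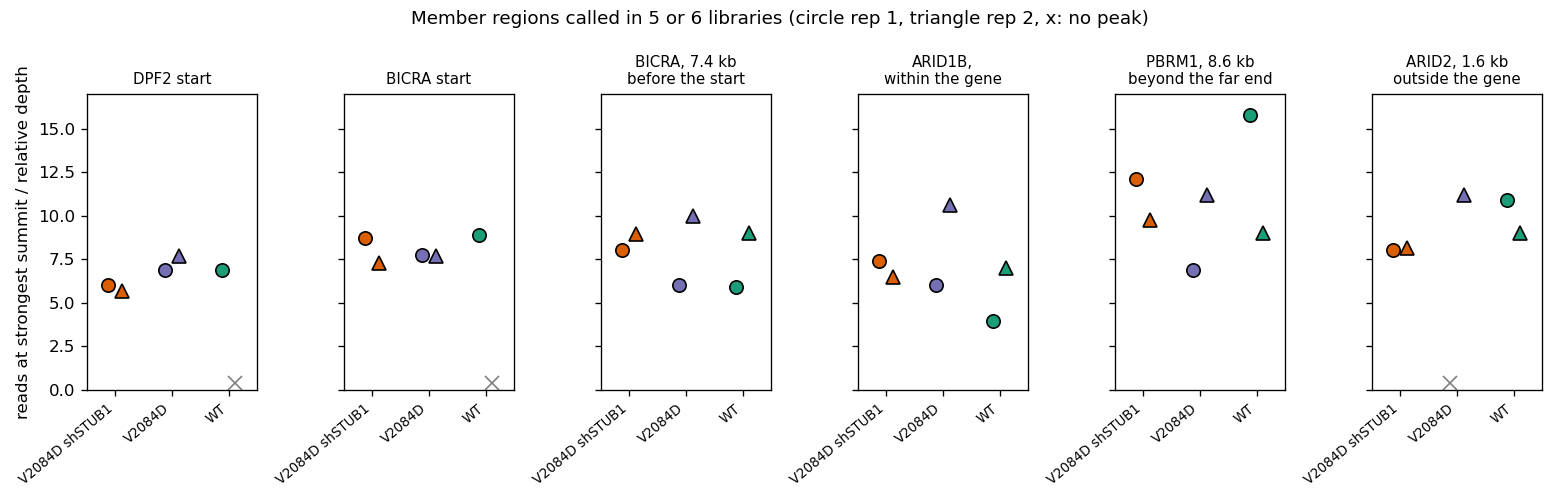
Reads at the strongest summit divided by relative depth (vertical axis) in each group (horizontal axis) for 6 member regions called in 5 or 6 libraries, with circles for replicate 1, triangles for replicate 2 and a cross near 0 where no peak was listed. The replicates of V2084D lie far apart at the ARID1B, PBRM1 and BICRA flank regions, and the groups overlap there.

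The shared and paralogous subunits of the same complexes were read the same way, as a list of 19 genes. Of these, 3 were called at an end in every library: ACTL6A, an actin-like core subunit, SS18, a BAF subunit fused in synovial sarcoma, and BICRAL, the paralogue of BICRA. Another 3 had none, BCL7A, BCL7C and the DPF2 paralogue DPF1. The ATPase genes differed, with SMARCA4 called in V2084D replicate 2 alone, at 8 reads, and SMARCA2 in 4 libraries. V2084D-only gene ends were SMARCC2, a core scaffold gene (7 and 14 reads), and SMARCD2 (8 and 14 reads), which makes 2 of 19 beside 5.07% of all protein-coding genes. SMARCD2 was also V2084D shSTUB1 only against WT, with 13 and 14 reads, 1 of 19 beside 7.07%. The WT lists, where these peaks were not called, had the lowest relative depth. V2084D replicate 1, which called both genes, had a list of 9231 summits, against 10441 in WT replicate 1. The part of depth in these calls was not tested. No gene of the list was WT only, and none was called between V2084D shSTUB1 and V2084D.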

How the data were processed

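Sample titles set the groups of the 6 Huh7 libraries. The submitters' processing notes name hg38 as the build and list MACS2, Bowtie2, Trimmomatic, Picard, SAMtools, deepTools and bedtools. Tool settings and versions, and whether reads were shifted for Tn5, were not given in the sources used here. What the authors deposited was a narrowPeak list for each library, with replicates called separately. Each deposited row gives a score (the whole part of 10 times the −log10 q), a fold over local background (a ratio), a −log10 p and a −log10 q by the authors' caller. The lowest deposited −log10 q was 1.30 to 1.31, depending on the library.

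Whole reads and background at each summit were recovered by taking fold as reads plus 1 over background plus 1 and the p-value as Poisson. This gave whole reads for 100% of summits within 0.001 in −log10 p. Relative depth was the smallest background seen in a library over that of the lowest library. Summits off chromosomes 1 to 22 and X, 2.07% to 2.60% per library, were left out. Gene positions were those of RefSeq (GRCh38.p14), with no exons. The reads and calls were tested on simulated data. Groups were compared by presence, a feature counting for a group when its libraries all had a peak and the other group's had none, over all 19974 protein-coding genes or all regions, with no p-value. Python 3.11.15, pandas 2.3.3, numpy 2.4.6 and scipy 1.17.1 were used.

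The members, the gene lists and the rule for named genes were chosen with earlier results of these data known. That rule takes all members, listed subunits called in a comparison (at most 4 per direction), genes with an end within 1000 bp of a member's gene-end peak, and regions away from gene ends that were called (at most 3 per comparison) or present in 4 or more libraries. Genes beside other member regions, other regions, and listed subunits present in every library or in none, with SMARCA4 and SMARCA2, were named after their values were seen. Sizes at regions called in all 6 libraries and ratios of same-numbered libraries were added after the data were seen. Results were recomputed with a stricter −log10 q (5 or more), with every list cut to the shortest, with gene-end windows of 500 and 2000 bp, gene starts only, other flanks, 50% coverage, other scalings and each library left out. A planned comparison of ARID1A and ARID1B protein sequences was not made, and protein sequences were not used here.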

Additional observations from a re-analysis of the deposited data

How the results depend on the processing

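With a −log10 q of at least 5, the members with a gene-end peak in every library numbered 0 in V2084D shSTUB1, 0 in V2084D, 0 in WT and 0 over all 6, against 3, 2, 1 and 1 in the deposited lists, and with lists of equal length they were again 0 in each. The share of all protein-coding genes that kept such peaks under these cuts was not worked out. The fall thus cannot be read as particular to the members. The strict q left 10 member regions away from gene ends. Of these 1, before BICRA, was V2084D shSTUB1 only against WT, beside 7.93% of the regions at no gene end. Equal lengths left 8. Of these 1, beside ARID2, was WT only against V2084D, where 4.11% of regions were, and against V2084D shSTUB1, where 3.74% were. Without flanks there were 11 regions. With flanks of 50 kb there were 38. Against WT 2 were V2084D only and 2 V2084D shSTUB1 only, beside 4.06% and 6.99% of the regions at no gene end. Members called for one group stayed at 0 with gene-end windows of 500 or 2000 bp and with gene starts only, and the one member count that moved was that with a peak in every V2084D shSTUB1 library, 4 with 2000 bp. With summed summit reads the log2 ratio at the DPF2 gene ends was 0.62 for V2084D over WT and 0.50 for V2084D shSTUB1 over WT, and V2084D shSTUB1 over V2084D was -0.88 at the ARID1B region and -0.52 before BICRA. That setting moved the median of all gene ends by 0.37 and 0.33 in those comparisons with WT. With it DPF2 was -0.12 for V2084D shSTUB1 over V2084D, and V2084D over WT was 1.22 at the ARID1B region and 0.70 before BICRA. The cause was not tested.

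With each library left out, members with a gene-end peak in every remaining library numbered 4 to 4 in V2084D shSTUB1, 3 to 3 in V2084D, 2 to 2 in WT and 1 to 2 over all. V2084D-only members against WT numbered 0 to 1, V2084D shSTUB1-only members 0 to 1 against V2084D and 1 to 1 against WT, and each reverse count stayed at 0. Away from gene ends, V2084D-only regions numbered 0 to 8 and WT-only regions 0 to 2 in V2084D against WT. V2084D shSTUB1-only regions numbered 0 to 2 and V2084D-only regions 0 to 6 between those groups. Against WT, V2084D shSTUB1-only regions numbered 0 to 4 and WT-only regions 0 to 2. The log2 ratio of the ARID1B region ranged over 0.13 to 1.07 for V2084D over WT, -0.61 to 0.21 for V2084D shSTUB1 over V2084D and -0.01 to 0.81 for V2084D shSTUB1 over WT. In the same order the ranges were -0.85 to 0.01, -0.04 to 0.67 and -0.53 to 0.28 beyond PBRM1, -0.31 to 0.44, -0.24 to 0.50 and -0.08 to 0.52 before BICRA, and 0.07 to 0.28, -0.29 to -0.13 and -0.14 to 0.06 at the DPF2 gene ends. Of 225 values under the alternatives, 183 stayed within 1.5 times (counts) or the spread between replicates (ratios). These include counts that stayed at 0 and ratios that changed sign within a wide spread, so the tally is no measure of stability. Over all protein-coding genes, equal lengths brought the V2084D-only and WT-only shares to 1.97% and 1.73%, against 5.07% and 0.0501% in the deposited lists. For V2084D shSTUB1 against V2084D they were 1.27% and 1.68%, against 0.365% and 0.656%. Same-numbered libraries did not deviate together (correlations of -0.02 to -0.01 over 3269 regions). A replicate block, the mean log2 ratio of same-numbered libraries, was added after the data were seen. In V2084D over WT it gave 0.17 for DPF2 (SD 0.256) and 0.60 for ARID1B (SD 0.00363). Beyond PBRM1 the SD was 1.07. For V2084D shSTUB1 the SD at ARID1B was 0.712 over V2084D and 0.715 over WT. The SD of 0.00363 rests on 2 ratios of libraries that did not deviate together and is no measure of repeatability. All 12 ratios differed from the ratios without the block by no more than the spread between replicates of the latter. Presence has no test to block. Few reads per summit limit every call.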
